A study of Mus musculus with 2 samples.

Results

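The genes that carry the insulin signal from its receptor to Akt, mTOR and the MAP kinases were examined in brown fat and in cultured brown adipocytes without PKGI. The list holds 42 genes, chosen by name for their known roles, with no cutoff on a measured value: the receptor, its substrates and adaptors, the subunits of PI3-kinase, the kinases and targets of the Akt branch, the mTOR branch, the Ras and MAPK branch, inhibitors of the receptor's signal, and 3 other signalling partners. The list was drawn up with earlier results of these data known. Of the 42, 41 had at least 1 probe under their own name or an older one (Foxo3a for Foxo3, Frap1 for Mtor, Hras1 for Hras), out of 27962 gene names on the array. They had 82 of the 41174 gene probes, 16 of them a single probe and 25 at least 2. Irs2 had no probe under its name and was not measured.

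Insulin binding switches on the receptor's tyrosine kinase, which phosphorylates the insulin receptor substrates and Shc. The substrates recruit PI3-kinase, whose lipid product brings Pdk1 and Akt to the membrane; Akt then inhibits Gsk3, the Foxo factors, the GTPase activator Tbc1d4 (AS160) and the Tsc complex, which in fat and muscle allows glucose transporters to reach the surface and mTOR to drive protein synthesis. Grb2 and Sos carry the signal to Ras and the MAP kinases, and insulin signalling is needed for brown preadipocytes to become fat cells.

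PKGI is the cGMP-dependent protein kinase I, encoded by Prkg1, and both arrays compared RNA of a mouse without it (KO) with RNA of a wild type littermate (WT), both of the C57BL/6N strain. On the BAT array, untreated brown adipose tissue of KO was labelled with Cy5 and that of WT with Cy3. The adipocyte array compared brown fat cells differentiated in vitro from tissue precursors, KO in Cy3 and WT in Cy5. Age, sex and the extent of the deletion are not given in the labels, and no array was repeated or dye-swapped. With 1 array per comparison there is no test, so no p-value is given, every difference describes these RNA samples, and genotype and dye cannot be told apart for any 1 gene.

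Among gene spots, 74.1% in KO and 63.1% in WT tissue exceeded background clearly, as did 68.1% in KO and 70.1% in WT adipocytes. Probes spotted several times differed with a pooled log2 SD of 0.11 in BAT and 0.10 in adipocytes, over 245 probes each, which measures spotting and scanning only. The precision is limited by the single array. As a check of the labels, the 2 Prkg1 probes well above background in both channels were lower in KO on both arrays, with log2 ratios of -1.29 and -1.22 in BAT and -0.94 and -2.31 in adipocytes. Markers of the labelled tissue were detected: on the BAT array 12 of 12 adipocyte and 9 of 9 brown adipocyte markers were well above background in KO and in WT, and on the adipocyte array 12 of 12 adipocyte markers were so in both, with 7 of 9 brown adipocyte markers in KO and 9 of 9 in WT. So were 12 of 12 macrophage and 12 of 12 smooth muscle and fibroblast markers in both channels of both arrays. In BAT 17 of 19 skeletal muscle markers were so in KO and 18 of 19 in WT. Detection alone therefore does not tell the cell types apart. Sex-linked RNA also differed. On the BAT array the 2 Xist probes measured in both channels had log2 ratios of 7.72 and 3.89 and the Y-linked Ddx3y probe measured in both had -4.48, whereas on the adipocyte array the 4 Xist probes lay between -5.26 and -1.53 and the Y-linked genes between -0.12 and 0.82. The part of sex in the values below was not tested.

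Promoters are shown for Tbc1d4 and Foxo1, the targets of Akt with the largest differences in adipocytes, and for the related inhibitors Grb10 and Grb14, because their ratios differ between the arrays. Each sequence is the 250 bases before the annotated start, written 5′ to 3′ on the gene's strand, from RefSeq (GRCm38.p6), with every match of the GC box (GGGCGG on either strand) in capitals. They lie at chr14:101609192-101609441 (minus strand), chr3:52268087-52268336 (plus), chr11:12037421-12037670 (minus) and chr2:65022767-65023016 (minus). Grb10 has another annotated start, at chr11:12027972-12028221 (minus), whose 250 bases hold 0 GC boxes and are not printed.
Tbc1d4: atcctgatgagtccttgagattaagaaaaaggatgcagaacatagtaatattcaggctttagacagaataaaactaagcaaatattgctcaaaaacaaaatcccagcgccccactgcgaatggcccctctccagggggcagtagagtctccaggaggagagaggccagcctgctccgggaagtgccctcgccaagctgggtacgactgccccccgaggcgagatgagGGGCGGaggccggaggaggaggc
Foxo1: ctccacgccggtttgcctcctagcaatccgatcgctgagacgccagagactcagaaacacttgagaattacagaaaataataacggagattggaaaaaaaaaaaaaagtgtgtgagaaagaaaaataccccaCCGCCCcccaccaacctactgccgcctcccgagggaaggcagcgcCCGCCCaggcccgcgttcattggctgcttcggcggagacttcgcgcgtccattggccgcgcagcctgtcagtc
Grb10: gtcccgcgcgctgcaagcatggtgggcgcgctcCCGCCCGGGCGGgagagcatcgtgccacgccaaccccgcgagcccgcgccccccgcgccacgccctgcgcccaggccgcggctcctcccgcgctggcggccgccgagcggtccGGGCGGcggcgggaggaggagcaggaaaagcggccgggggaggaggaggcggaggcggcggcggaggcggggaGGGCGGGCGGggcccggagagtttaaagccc
Grb14: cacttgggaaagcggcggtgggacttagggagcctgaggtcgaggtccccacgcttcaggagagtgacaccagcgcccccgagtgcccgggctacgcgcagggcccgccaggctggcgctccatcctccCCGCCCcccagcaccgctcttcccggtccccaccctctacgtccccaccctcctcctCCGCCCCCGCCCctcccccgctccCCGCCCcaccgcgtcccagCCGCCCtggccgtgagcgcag

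Promoters were present in the table for 39 of the 42 genes, with 55 starts in all, and 38 of these 55 (69.1%) held a GC box, against 32.7% of 32851 promoters. The members' promoters also had a higher median GC content, 60.4% against 52.4% whose part in that count was not tested. The Foxo motif GTAAACA stood in 1 of the 55, an Akt1 start, against 3.17% of all promoters; the STAT motif TTCNNNGAA in 3, at starts of Frap1, Akt2 and Socs3, against 7.02%; and the nuclear receptor motif AGGTCA in 4, against 14.0%. All were searched on both strands. None of the 4 sequences above held those last 3 motifs, which says only that these letters are not in these windows.

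In brown fat the pathway's genes were close to equal in KO and WT. Of 41 measured members none was at least 2-fold higher and none at least 2-fold lower on the BAT array (log2 ratios beyond 1 or -1), where 3.24% of 15569 genes passed 2-fold either way, 127 higher (0.816%) and 377 lower (2.42%). That share depends on the processing: 15.0% of all genes passed with Feature Extraction's own ratios, and 0.863% when spots with an outlier flag were kept. The members' log2 ratios ran from -0.80 to 0.23, with 18 above 0 and 23 below, a median of -0.04 and a median of 0.00 over all genes. Those past 0.5 in size were Grb14 and Cbl, 2 of 41, against 14.6% of all genes. In the adipocytes the values were larger: 1 of 41 members, Tbc1d4, was at least 2-fold lower and none higher, where 6.67% of 15073 genes passed 2-fold, 376 higher (2.49%) and 629 lower (4.17%). The members ran from -1.15 to 0.81, 11 above 0 and 30 below, with a median of -0.17 against 0.00 for all genes. There 9 of 41 lay past 0.5 in size, 7 lower and 2 higher, against 22.9% of all genes, so the count is near the background. In adipocytes 73.2% of the members and 50.4% of all genes were below 0, and in BAT 56.1% of the members and 49.4% of all genes. Of the members 31 of 41 were further from 0 in adipocytes than in BAT. All genes were also more spread there, with 22.9% past 0.5 against 14.6% in BAT, and their share further from 0 was not computed. The same sign on both arrays was seen for 18 of 41 members (43.9%, with 49.7% among 14220 genes).

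**Figure D1:**
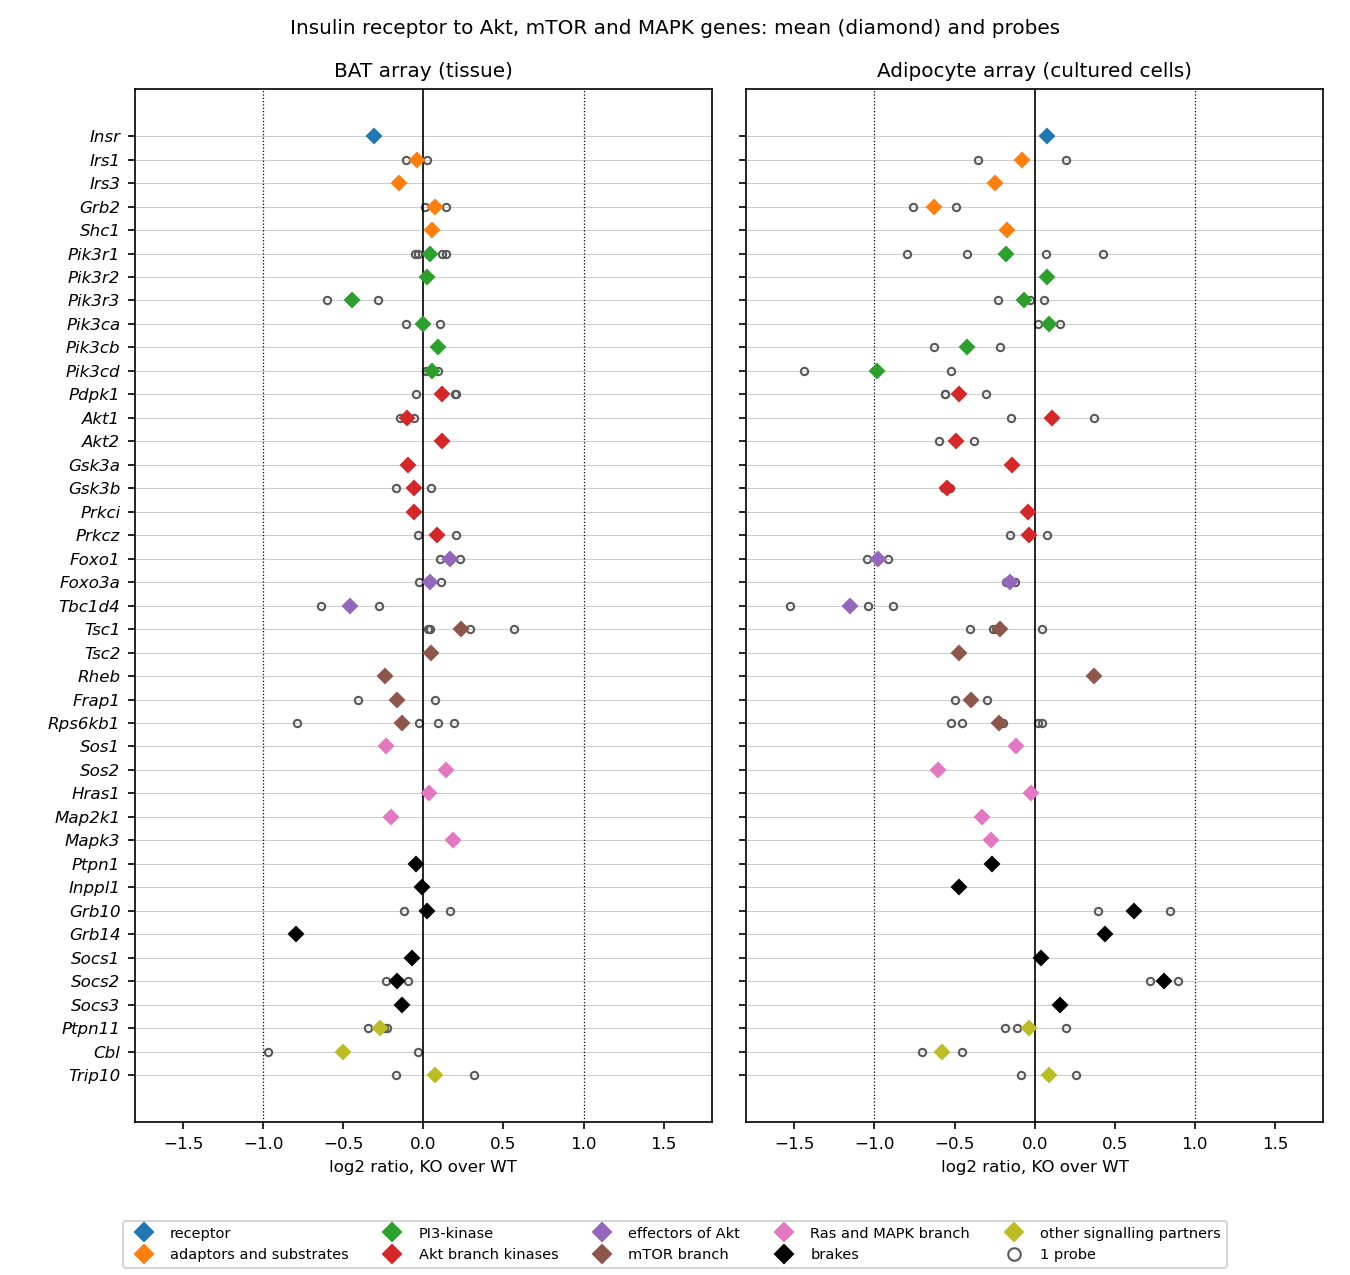
log2 ratio of KO over WT (x axis) for the 41 measured members (rows, coloured by role, with the inhibitors as brakes) in BAT (left) and adipocytes (right). Diamonds are gene means, open circles single probes, and dotted lines mark 2-fold; no member passes it in BAT and Tbc1d4 passes it on the adipocyte array.

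The receptor and its substrates differed little in tissue. Insr, the insulin receptor, had a normalized signal of 135 in KO and 167 in WT on the BAT array (log2 ratio -0.31), and 99.0 in KO and 94.0 in WT on the adipocyte array (0.08). A second, brighter probe that matches Insr by accession but is named D630014A15Rik had 2691 in KO and 2389 in WT in BAT (0.17), and 385 in KO and 608 in WT in adipocytes (-0.66), so the 2 probes differ in sign on both arrays. The probe named Insr was dim, and in adipocytes it was -0.21 with Feature Extraction's ratios. Its sign there is therefore not settled. The substrate Irs1 had log2 ratios of -0.04 in BAT and -0.08 in adipocytes, and Irs3, another substrate, -0.15 in BAT and in adipocytes was not well above background in KO, at least 1.16-fold lower (but 0.12 on the log2 scale without loess, so its direction is not settled). Among the adaptors, Grb2, which links phosphorylated receptors to Sos, had 5833 and 4631 in KO and 8204 and 7833 in WT on its 2 adipocyte probes, a mean of -0.63, and 0.08 in BAT. Shc1, another adaptor, had -0.17 in adipocytes and 0.06 in BAT.

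The PI3-kinase genes were spread around 0. Pik3cd, the delta catalytic subunit, known mainly from leukocytes, differed in adipocytes about as much as Foxo1 below, with 911 in KO and 2476 in WT on its bright probe (-1.44) and 147 in KO and 211 in WT on the other (-0.52), a mean of -0.98; in BAT it was 0.05, and WT was near background there on 1 of its 2 probes. On the same adipocyte array 9 of 12 macrophage markers were at least 2-fold lower in KO, with a median of -1.65 and all 12 well above background in both channels. Pik3cg and Pik3r5, subunits of the gamma form and named after their values were seen, had -0.92 and -0.82. The part of macrophages in the Pik3cd value was not tested, and in bulk RNA fewer cells of a type and less RNA per cell cannot be told apart. The widely expressed catalytic genes Pik3ca and Pik3cb had 0.09 and -0.43 in adipocytes, and 0.00 and 0.09 in BAT, where 1 of 2 Pik3cb probes was near background in WT and Feature Extraction's ratios gave 0.62. Pik3r3, a regulatory subunit, was 105 in KO and 160 in WT on its dimmer BAT probe and 1187 in KO and 1445 in WT on the brighter, a mean of -0.44, and -0.07 in adipocytes. Pik3r1 (p85alpha), singled out after its values were seen, had 4 adipocyte probes at 0.43, -0.79, 0.07 and -0.42 around a mean of -0.18, whereas its 4 BAT probes lay between -0.05 and 0.14. Pik3r2, also regulatory, had 0.02 in BAT and 0.08 in adipocytes.

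The kinases of the Akt branch were near 0 in BAT and partly lower in KO adipocytes. In adipocytes Pdpk1, which encodes the kinase that activates Akt, had -0.48 with 3 probes between -0.56 and -0.30, Akt2, the form most tied to glucose uptake, had 1056 and 2150 in KO and 1599 and 2800 in WT (-0.49), and Gsk3b had -0.55 with both probes near that value. Akt1, the most general form, was 0.11 with probes of both signs (-0.15 and 0.37). Gsk3a (-0.14) and the atypical protein kinases C Prkci (-0.04) and Prkcz (-0.04) lay closer to 0. In BAT the 7 kinases ran from -0.10 to 0.12.

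The direct targets of Akt held the 2 lowest transcripts of the Akt branch in adipocytes. Tbc1d4, the Rab GTPase activator that holds glucose transporters inside the cell until Akt phosphorylates it, had signals of 201, 235 and 157 in KO and 413, 434 and 453 in WT on its 3 probes above background, and its other probe was not well above background. All 3 were lower in KO, by log2 ratios of -1.04, -0.88 and -1.52, and the mean, -1.15, is a 2.22-fold lower level; it stood below all but 3.17% of genes on the array. It was -0.84 with dim probes averaged in and -0.88 on its brightest probe, under 2-fold. In BAT its probes had 1037 and 399 in KO and 1255 and 623 in WT, a mean of -0.46. Foxo1, the transcription factor that insulin keeps out of the nucleus, had 1005 and 829 in KO and 2074 and 1565 in WT in adipocytes (-1.05 and -0.92, mean -0.98), just under 2-fold, and in BAT 8457 and 4868 in KO and 7222 and 4523 in WT (0.17). Foxo3a was -0.15 in adipocytes and 0.04 in BAT.

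**Figure D2:**
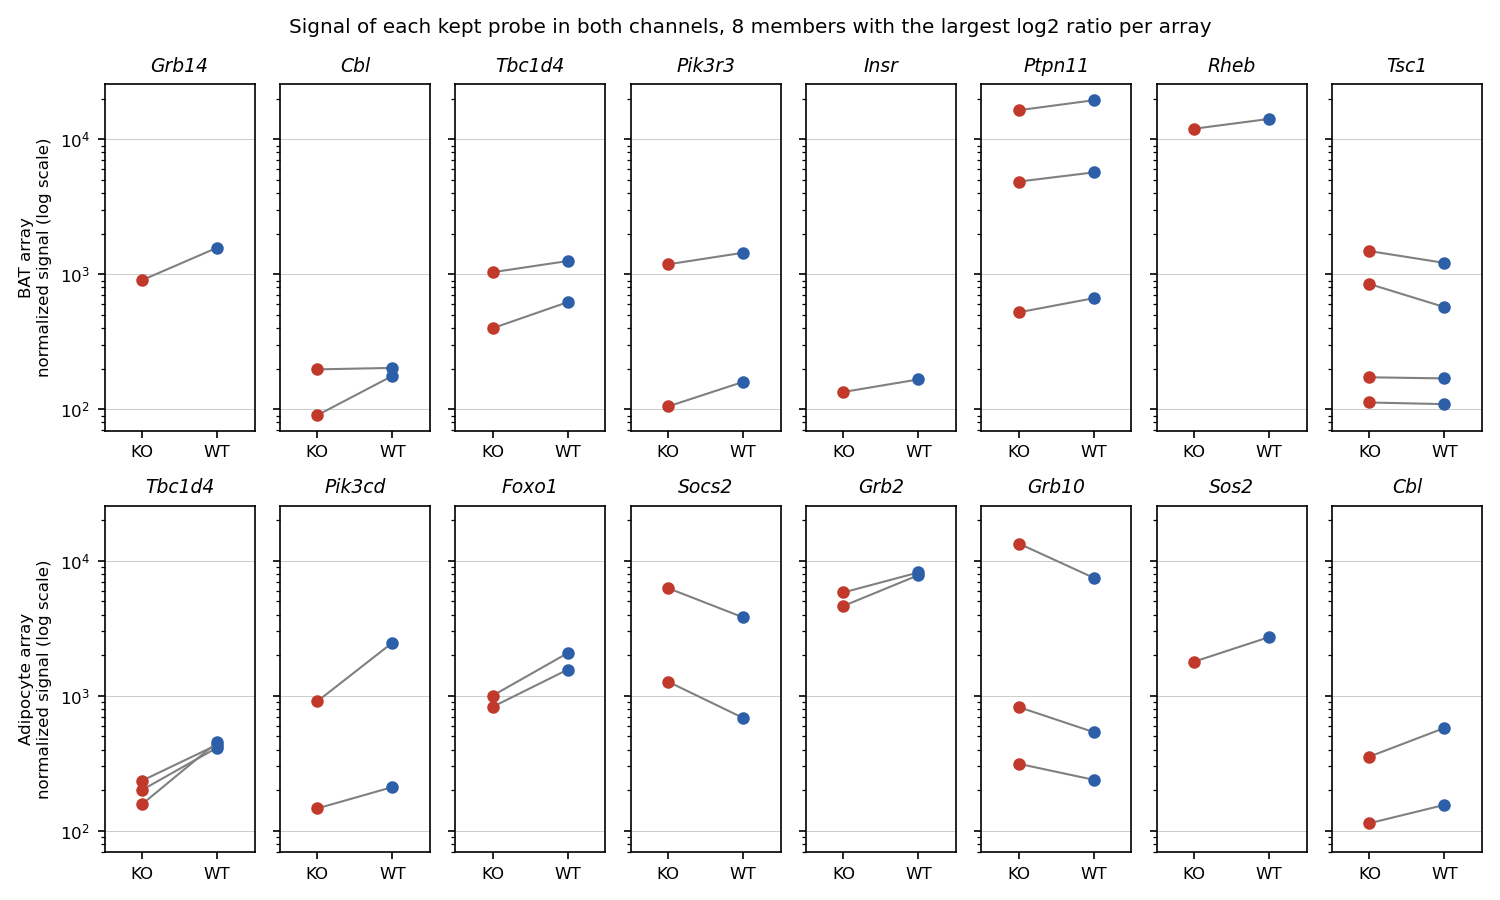
Normalized signal (log scale) of every kept probe in KO (red) and WT (blue), joined by a line, for the 8 members with the largest difference in BAT (top) and in adipocytes (bottom). Signals of different probes are not comparable; all 3 Tbc1d4 and both Foxo1 probes are lower in KO adipocytes, and the Socs2 and Grb10 probes are higher.

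The mTOR branch had mixed signs. In BAT, Tsc1, a subunit of the complex that inhibits mTOR, was 173, 1487, 112 and 848 in KO and 170, 1215, 109 and 572 in WT on 4 probes, a mean of 0.23, all 4 above 0. The probes at 0.03 and 0.04 lay within the pooled spot SD of 0.11, and the others read 0.29 and 0.57. Rheb, the GTPase that activates mTOR, was 11982 in KO and 14163 in WT in BAT (-0.24). Without loess it was 0.39 there, or 0.14 relative to the median of all genes. In adipocytes Tsc1 had -0.21 and Rheb, at 40677 in KO and 31397 in WT, had 0.37. Without loess Rheb was -0.09 in adipocytes, but 0.17 relative to the median of all genes. Tsc2 had 0.05 in BAT and -0.47 in adipocytes, and Frap1, which encodes mTOR, -0.17 and -0.40. For Rps6kb1, the S6 kinase, the means were -0.13 and -0.22, but 1 of its 4 BAT probes read -0.79 while the others read between -0.03 and 0.19; it was singled out after its values were seen.

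In the Ras and MAPK branch, Sos2, an exchange factor of Ras, was 1791 in KO and 2724 in WT in adipocytes (-0.60) and 0.14 in BAT, while its relative Sos1 had -0.12 and -0.23. A second, dim probe matches Sos1 by accession but carries another name. It had 0.20 in adipocytes and 0.12 in BAT, the opposite sign on both arrays. Map2k1, which encodes the kinase Mek1, had -0.33 and -0.20, and Mapk3, which encodes Erk1, had -0.27 on both its probes in adipocytes and 0.18 in BAT. Hras1 was at -0.02 and 0.04. By the probes named for them, all 5 genes of the branch were below 0 in adipocytes and 2 of 5 in BAT. In adipocytes Sos2, Map2k1 and Mapk3 were below 0 in every setting tried, and Sos1 and Hras1 were not.

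The inhibitors of the receptor's signal, 7 genes, included the members that were highest in KO adipocytes. Socs2, a suppressor of cytokine signalling induced by growth hormone, had 6278 and 1273 in KO and 3814 and 686 in WT, both probes higher (0.72 and 0.89), a mean of 0.81 that lay above 95.7% of genes. Grb10, an adaptor that blocks the receptor's kinase, had 314, 13430 and 826 in KO and 239, 7480 and 539 in WT, all 3 probes higher, with a mean of 0.62. Grb14, of the same family, had 1517 in KO and 1117 in WT (0.44). In BAT the values were different: Grb14 was the lowest member, with 905 in KO and 1574 in WT on its 1 probe above background (-0.80), while Socs2 was -0.16 and Grb10 0.02. The phosphatase genes Ptpn1, which encodes PTP1B, and Inppl1, which encodes SHIP2, had -0.27 and -0.47 in adipocytes and -0.04 and -0.01 in BAT. Socs1 and Socs3 lay within 0.16 of 0 on both arrays. In the adipocytes the median of the 7 inhibitors was 0.16, with 5 above 0 and 2 below, against -0.17 for all 41 members and 0.00 for all genes. That median is the value of Socs3, which without loess was 0.0062 relative to the median of all genes. In BAT the median of the inhibitors was -0.07.

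Of the other signalling partners, Cbl, an ubiquitin ligase that in adipocytes also takes part in a PI3-kinase-independent route to glucose uptake, had 90.6 and 198 in KO and 177 and 203 in WT on its 2 BAT probes; the first was -0.97 and the second -0.04, so its mean of -0.50 rests on 1 probe. In adipocytes both were lower, 114 and 355 in KO and 156 and 578 in WT, a mean of -0.58. Ptpn11, which encodes the phosphatase Shp2, was 16429, 524 and 4865 in KO and 19473, 666 and 5691 in WT in BAT, all 3 lower (-0.27), and -0.03 in adipocytes. Trip10, which encodes CIP4, an effector in the Cbl route, was 0.07 in BAT and 0.09 in adipocytes.

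**Figure D3:**
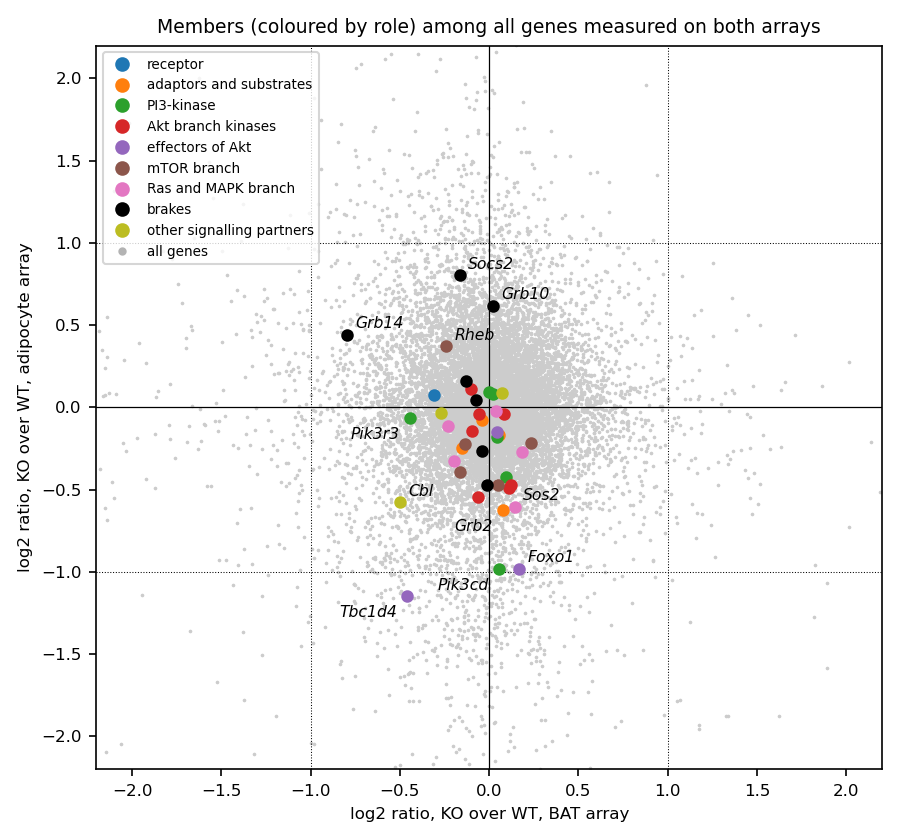
log2 ratio of KO over WT in BAT (x axis) and adipocytes (y axis) for the 41 members, coloured by role, over all genes measured on both arrays (grey; genes beyond the axes are not drawn). Dotted lines mark 2-fold. Tbc1d4 is lower on both axes, as are other members such as Cbl. Grb14, Tsc1 and Rheb lie in opposite directions on the 2 arrays with both values at least 2 times the pooled spot SD. By sign alone, 18 of the 41 members have the same direction on both. Without loess, relative to the median of all genes, Rheb is 0.14 in BAT and 0.17 in adipocytes.

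The result for BAT depends on how spots with an outlier flag are treated. When they stayed in the background fit, Grb14 had -0.27, Tbc1d4 -0.10, Pik3r3 -0.04, Cbl -0.03 and Insr -0.02. This shrinkage was not particular to the members. In that setting Prkg1 itself went from -0.84 to -0.072 in BAT, and 0.863% of all genes passed 2-fold against 3.24%. Of the 8 members with the largest BAT differences, Rheb and Ptpn11 turned sign in at least 1 setting. Relative to the median of all genes, 19 of 41 members kept their sign in BAT in all 10 settings tried (10 negative and 9 positive) and 27 of 41 in adipocytes (22 negative and 5 positive). In adipocytes the positive 5 were Rheb, Grb10, Grb14, Socs2 and Socs3, the last by as little as 0.0062. The share of all genes that kept their sign was not computed, so these counts describe the members only.

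**Figure D4:**
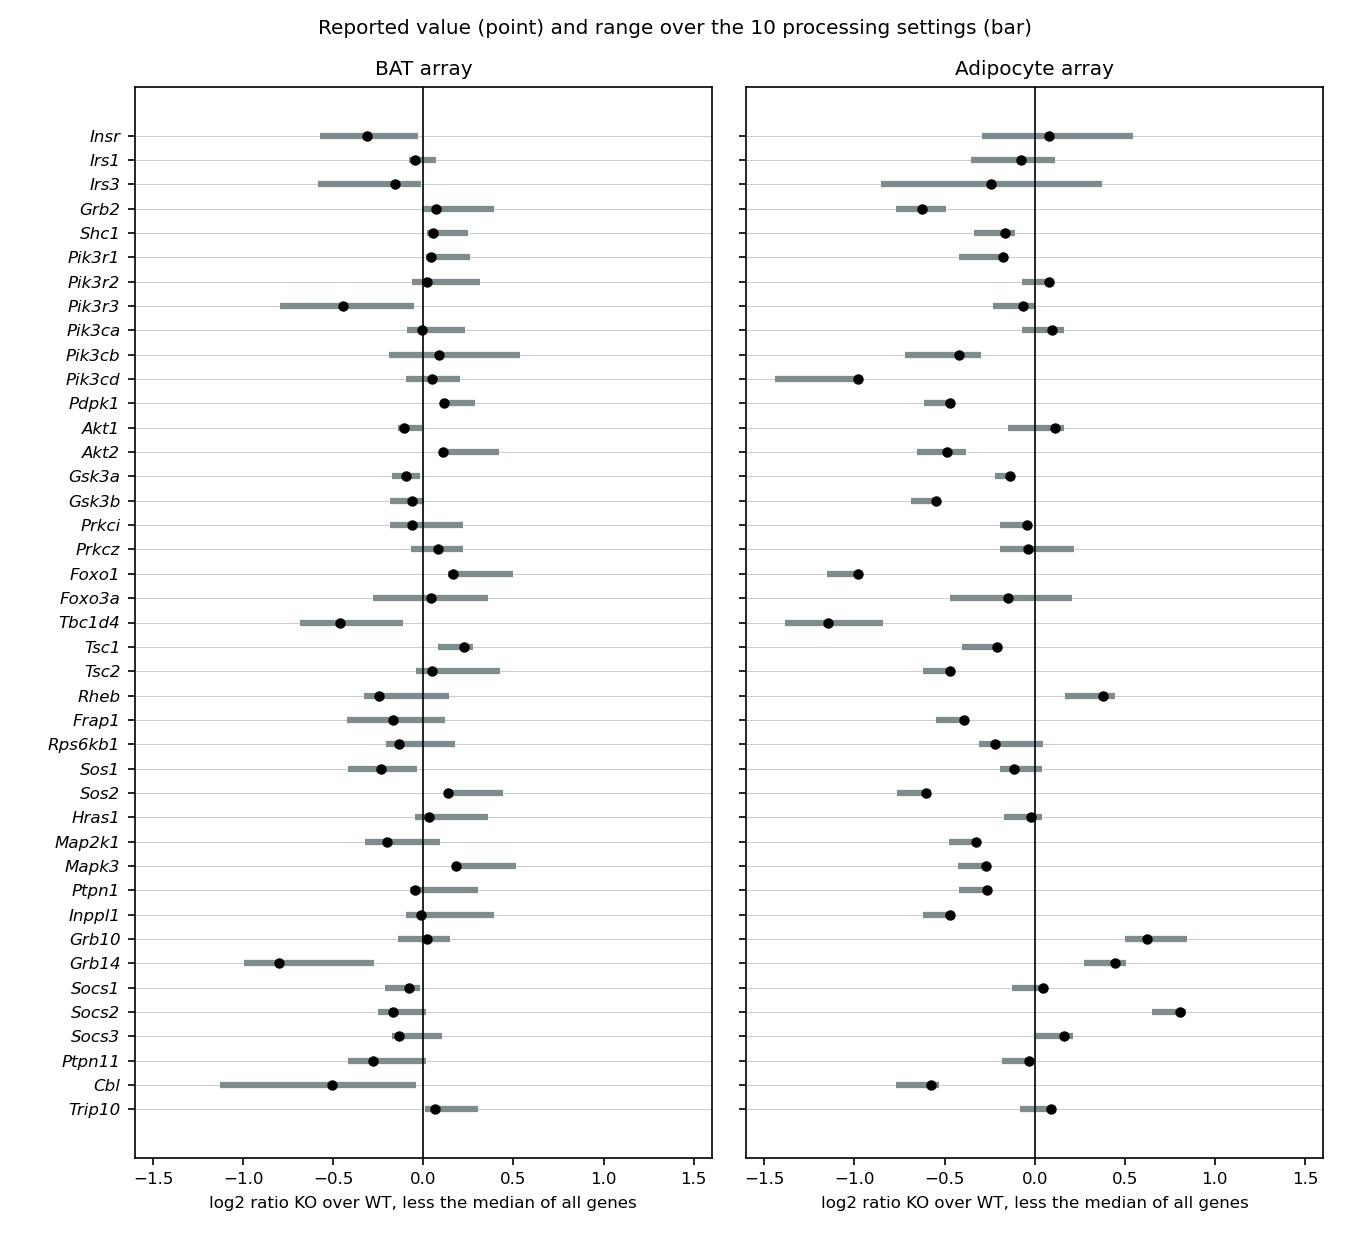
log2 ratio of KO over WT less the median of all genes (x axis) for each member in BAT (left) and adipocytes (right). Points are the reported values and bars the range over 10 processing settings; the Tbc1d4, Foxo1 and Pik3cd bars stay below 0 in adipocytes and the Socs2 and Grb10 bars above.

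Other genes of the pathway, 69 named by role, were mostly within 2-fold as well. In BAT 68 were measured, none passed 2-fold and the median was -0.13; the largest were Trib3, a pseudokinase that inhibits Akt (0.96), the phosphatase Ptpn2 (0.63) and the kinase Sgk1 (-0.62). In adipocytes 67 were measured, with 1 higher and 2 lower and a median of -0.13. Prkaa2, a catalytic subunit of AMP kinase, was 2.28-fold lower, and the pseudokinase Trib2 was 2.05-fold higher.

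Genes regulated by insulin or by Foxo factors, 22 listed, held more 2-fold differences. In BAT 22 were measured, 2 higher and 1 lower, with a median of 0.21: Fasn, the fatty acid synthase, was 4.22-fold lower, and the lipid phosphatase Lpin1 and the transcription factor Klf15 were 2.52-fold and 2.03-fold higher. In adipocytes 9 of 21 passed 2-fold, all lower in KO, and the median was -0.68. The insulin-responsive glucose transporter Slc2a4 was 11.1-fold lower, Fasn 6.15-fold, the lipoprotein lipase Lpl 6.11-fold, the lipogenic factor Srebf1 5.47-fold, Bcl6 3.95-fold, Lpin1 3.67-fold, Klf15 2.07-fold and the cell cycle inhibitor Cdkn1a 2.03-fold lower. Pck1, which encodes the gluconeogenic enzyme, was lower by at least 4.79-fold, its KO signal not being well above background.

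Markers of several cell types differed on the same arrays. In the adipocytes 12 of 12 adipocyte markers were at least 2-fold lower in KO, from -5.67 to -2.15 with a median of -3.93, and 5 of 9 brown adipocyte markers, with a median of -2.31. On the same array 4 of 12 smooth muscle and fibroblast markers were at least 2-fold higher, Cnn1 (2.75), Tagln (2.62), Myl9 (1.70) and Acta2 (1.24). The rest of that list stayed within 2-fold. Col1a1, Col1a2 and Col3a1 had 0.25, 0.12 and -0.25, and Dcn, Lum and Pdgfra had 0.06, 0.21 and -0.08. Dlk1 had 0.28 and Thy1 0.97. Slc2a4, Lpl, Fasn, Foxo1 and Tbc1d4 are transcribed in fat cells, Lpl is in both lists, and the part of the fat cell content in these values was not tested. In BAT 17 of 18 skeletal muscle markers were at least 2-fold lower in KO, with a median of -2.46, and 5 of 9 brown adipocyte markers were lower and 1 higher, while 1 of 12 adipocyte markers was higher (median 0.17). Tbc1d4 and Insr are also transcribed in muscle, and the part of muscle RNA in their BAT values was not tested. Of 12 macrophage markers none passed 2-fold in BAT (median -0.05), and none of 8 endothelial markers in BAT or 6 in adipocytes.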

How the data were processed

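RNA was extracted with Trizol and amplified with Agilent's linear kit, per the labels' protocols. The deposited scanner files hold spot intensity from Agilent Feature Extraction 9.5.1.1 (protocol GE2-v5_95_Feb07) and log10 ratios of red to green, per the file headers; the deposited value table also holds log10 ratios, turned to KO over WT by the authors. The probes' genome build is not stated there.

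Ratios were recomputed with limma 3.58.1 in R 4.3.3. Spots with an outlier flag (1215 in BAT, 203 in adipocytes) were left out, background was corrected by normexp (offset 50), and loess within each array gave controls weight 0. Channel signals were scaled with Aquantile. Probes well above background in KO, WT or both were kept (72 of 82 member probes in BAT, 77 in adipocytes), and a gene is the mean log2 ratio, KO over WT, of its kept probes. All-gene counts use names found in the RefSeq table. A bound ("at least N-fold") sets the bright channel against the dim signal, or the lowest signal well above background where that is higher. The steps were tested on simulated arrays, judged only on spots well above background in both channels. Those arrays held no flagged spots, so the handling of dim or flagged spots was not tested. Named in full were members past 2-fold and the 8 largest per array; of other lists, genes past 2-fold or the 3 largest. A gene past 2-fold among the other pathway genes is counted but not reported here by name. The members, the lists and the treatment of outlier spots were chosen with earlier results of these data known. The 9 alternatives are no loess, offset 0, Feature Extraction's ratios, the deposited table, probes above background in both channels, no such filter, the brightest probe, outlier spots kept, and naming through accession.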

Additional observations from a re-analysis of the deposited data

Results flagged for a closer look

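Of the members, 3 had ratios of opposite sign on the 2 arrays with both values at least 2 times the pooled spot SD, and the difference between the arrays was not tested, since each array is a single measurement with its own dye orientation. The share of all genes that meet this rule was not computed. Grb14 was -0.80 in BAT and 0.44 in adipocytes, a difference (BAT minus adipocyte) of -1.24, which was -0.71 with outlier spots kept, -0.79 with no brightness filter and -0.33 without loess. The values without loess were -0.32 in BAT and 0.02 in adipocytes. Relative to the median of all genes in that setting they were -0.57 and 0.27, still of opposite sign. Rheb was -0.24 in BAT and 0.37 in adipocytes, a difference of -0.61. Without loess it was 0.39 in BAT and -0.09 in adipocytes, where the medians of all genes were 0.25 and -0.26. Relative to those medians Rheb was 0.14 in BAT and 0.17 in adipocytes, so only its BAT sign turned. Tsc1 was 0.23 in BAT and -0.21 in adipocytes, a difference of 0.45, just past that limit. It no longer reached the limit with outlier spots kept (0.09 in BAT) or with Feature Extraction's ratios or the deposited table (-0.15 in adipocytes).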

How the results depend on the processing

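Each comparison rests on 1 array, so no value has a replicate error, and spots near background limit Irs3, Prkcz, Foxo3a, Pik3cb and Pik3cd. No paired analysis was possible because each comparison is a single array with no replicate. Of 737 single member values under an alternative, 595 stayed on the same side of 2-fold and, where below it, within the median SD between probes of a gene, 128 moved further, 12 passed 2-fold, 2 dropped below it (Tbc1d4 in adipocytes) and 0 turned a 2-fold call round. Without loess the median of all genes was 0.25 in BAT and -0.26 in adipocytes; relative to it the members' median was 0.10 in BAT and -0.22 in adipocytes, and with outlier spots kept it was 0.03 in BAT. Over all settings that relative median ran from -0.08 to 0.10 in BAT, so its sign is not settled, and from -0.23 to -0.16 in adipocytes. Of all genes past 2-fold 25.2% were higher in BAT and 37.4% in adipocytes, against 62.4% and 13.4% without loess and 59.5% and 47.7% with Feature Extraction's ratios. The share of all genes past 2-fold ran from 0.863% to 15.0% in BAT and from 4.83% to 12.1% in adipocytes.

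Without loess the medians were 0.36 (BAT) and -0.48 (adipocytes) for the members, 0.24 and -0.41 for other pathway genes, and 0.55 and -1.10 for regulated genes; the last was 0.026 in BAT with outlier spots kept. Members lower in adipocytes numbered 5 without loess, 3 with offset 0, 2 with Feature Extraction's ratios, the deposited table or the brightest probe, and 0 with no filter; in BAT 1 (Cbl) was lower with Feature Extraction's ratios or the deposited table. Other pathway genes higher in BAT numbered 3 without loess, 1 with offset 0 or the brightest probe and 4 with Feature Extraction's ratios or the deposited table, and 1 was lower with the brightest probe. In adipocytes they were 0 higher and 5 lower without loess, 6 lower with offset 0, and 2 higher and 7 lower with Feature Extraction's ratios or the deposited table. Regulated genes higher in BAT numbered 4 with offset 0, 5 with Feature Extraction's ratios or the deposited table and 1 with outlier spots kept. Prkg1, at -0.84 in BAT as a mean of kept probes, was -1.28 with offset 0, -1.12 with Feature Extraction's ratios or the deposited table, -1.26 over probes above background in both channels, -0.64 with no filter, -1.29 on the brightest probe and -0.072 with outlier spots kept; in adipocytes it was -1.03, and -0.79 with no filter. The cause of these shifts was not tested.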
